A study of Mus musculus with 7 samples.

Results

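The genes described here are the alpha- and beta-tubulins of mouse embryonic fibroblasts (MEFs). They are 4 alpha-tubulin genes (Tuba1a, Tuba1b, Tuba1c and Tuba4a) and 6 beta-tubulin genes (Tubb2a, Tubb2b, Tubb3, Tubb4b, Tubb5 and Tubb6), found by symbol as 10 of the 49382 rows of the expression table. RNA-seq was done on wild-type MEFs prepared from E13.5-E14.4 embryos without the head and fetal liver, used between passages 3 and 7 and plated at 10000 cells per cm2, with 7 libraries in all. Besides an untreated control, 4 conditions lasted 10 hours: medium without glucose, medium without glutamine, hypoxia (0.1% oxygen) and ER stress (1 μM thapsigargin). The other 2 lasted 3 hours: oxidative stress (10 μM sodium arsenite, NaAsO2) and osmotic stress (100 mM NaCl). Thapsigargin blocks the pump that fills the calcium store of the ER, and arsenite binds thiol groups of proteins. Each condition had 1 library, so no difference could be set against a spread between replicates, and none of the differences given here was tested.

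Alpha- and beta-tubulin pair into the dimer from which microtubules are built, the tracks for vesicle transport and the fibres of the mitotic spindle. A new tubulin chain is handed from prefoldin to the CCT chaperonin and then to folding cofactors that assemble the dimer. Cells also sense free dimer: when it is in excess, TTC5 binds the first residues of tubulin chains as they leave the ribosome, and the tubulin mRNA is degraded. Within the alpha-tubulins, and within the beta-tubulins, the genes encode very similar proteins, called isotypes, that differ mainly in their tails. Tubb3 is widely used as a marker of neurons, whereas Tubb5, Tuba1b and Tubb6 are found in many cell types, and Tubb2a and Tubb2b are abundant in brain.

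Expression is given in TPM, a share of all transcripts scaled for their length, so levels can be set side by side between genes. A change is the log2 of TPM + 1 in a stress library minus the same in the control library, a scale on which genes of low expression appear to change less than they did. A gene was counted as changed past 2-fold where this value was above 1 or below -1. The background was the 12909 genes whose TPM averaged 2 or more across the libraries, and all 10 tubulins were among them. Each library summed to the same total, and the number of reads behind a value is unknown. Over these genes the median change was -0.16 with arsenite and -0.12 with NaCl, and elsewhere it lay within 0.1 of 0. All 9 fibroblast markers were kept, with a summed level of 10269 to 12813 TPM in 6 libraries and 6166 TPM in ER stress. In that library 3 of the 9 (Pdgfrb, Col3a1 and Lum) were lower than in the control past 2-fold, and their part in the tubulin values was not tested. Markers of macrophages, endothelium, epithelium and muscle each summed to at most 36.6 TPM in any library. In such bulk libraries, less RNA per cell and fewer cells of a kind cannot be told apart.

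Tubulin mRNA was abundant in these cells and came mostly from 3 genes. In the control library Tuba1a ranked 107 and Tuba1b 129 among the kept genes, and Tubb5 ranked 167. Tubb4b (368), Tubb6 (377), Tuba1c (645) and Tubb2a (857) came next, followed by Tubb2b (1383) and Tuba4a (1648), while Tubb3 ranked 5491. The 10 genes together made up 0.513% of the control library. With 1 library per condition, neighbours in this order could not be told apart by any replicate spread, and the order changed between libraries. Tuba1b was above Tuba1a in ER stress, and Tubb6 was above Tubb4b in glucose depletion, glutamine depletion, ER stress and oxidative stress.

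**Figure D1:**
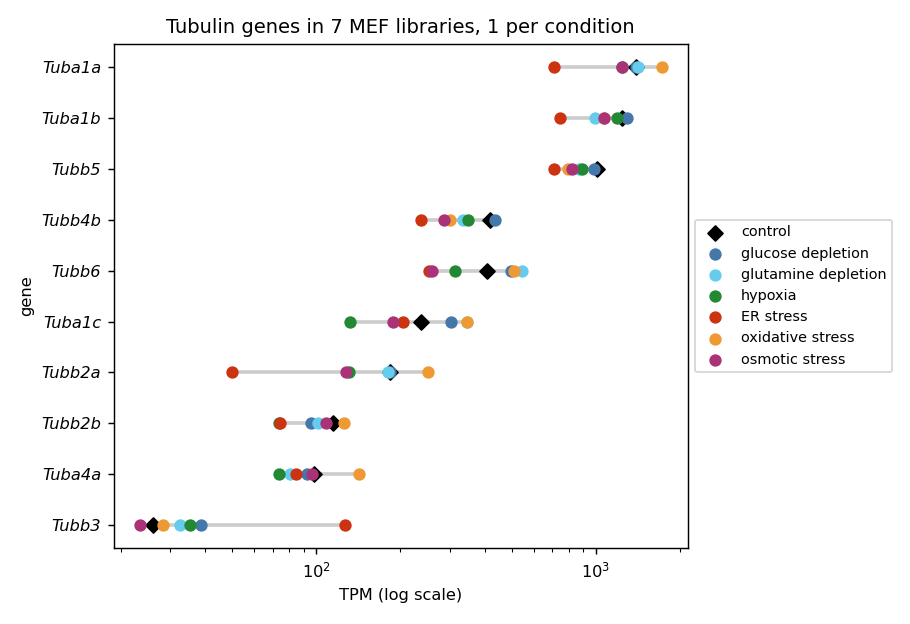
Level of each tubulin gene in TPM on a log axis, with 1 point for each of the 7 libraries (black diamond, control) and a grey line from the lowest to the highest. The ER stress point of Tubb3 (127 TPM) stands far to the right of its other 6 points, and that of Tubb2a (49.8 TPM) far to the left.

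Among the alpha-tubulins, Tuba1a stood at 1390.5 TPM in the control and at 1395 in glucose depletion, 1422 in glutamine depletion, 1244 in hypoxia, 709 in ER stress, 1722 in oxidative stress and 1241 in osmotic stress. The ER stress library was the lowest and the arsenite library the highest, and the other 5 lay close together. Tuba1b, the second most abundant alpha-tubulin, measured 1240.2 TPM in the control, 1296 in glucose depletion, 997 in glutamine depletion, 1189 in hypoxia, 747 in ER stress, 1073 in oxidative stress and 1067 in osmotic stress. Again ER stress was the lowest, but here the arsenite library was below the control. For Tuba1c the levels were 237 TPM in the control, 303 without glucose, 345 without glutamine, 132 in hypoxia, 205 in ER stress, 347 in oxidative stress and 188 in osmotic stress. This gene had its lowest level in hypoxia rather than in ER stress, and its levels in glutamine depletion and arsenite were nearly the same. Tuba4a, the least abundant of the 4, was at 97.9 TPM in the control and at 92.2, 80.1, 73.2, 84.5, 142 and 96.8 TPM in glucose depletion, glutamine depletion, hypoxia, ER stress, oxidative stress and osmotic stress. The arsenite library alone stood above the control for Tuba4a.

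Tubb5, the main beta-tubulin, was highest in the control at 1014 TPM and stood at 983 in glucose depletion, 869.9 in glutamine depletion, 893 in hypoxia, 710.2 in ER stress, 796 in oxidative stress and 823 in osmotic stress. It had the narrowest range of the 10 genes, with the highest library 1.43 times the lowest. Tubb4b gave 419.6 TPM in the control, 435 without glucose, 335 without glutamine, 349 in hypoxia, 236 in ER stress, 299.9 with arsenite and 287 with NaCl, with 5 of the 6 stress libraries below the control. Tubb6 gave 407 TPM in the control, 498 without glucose, 546 without glutamine, 315 in hypoxia, 253 in ER stress, 512 with arsenite and 259.5 with NaCl. For Tubb6 the libraries fell on both sides of the control, with both nutrient depletions and arsenite above it and hypoxia, ER stress and osmotic stress below it. Tubb2b measured 115 TPM in the control and 95.5, 101, 73.6, 74.3, 125 and 108 TPM in glucose depletion, glutamine depletion, hypoxia, ER stress, oxidative stress and osmotic stress.

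Tubb2a and Tubb3 had the widest ranges, with a highest library 4.94 and 5.24 times the lowest. Tubb2a was at 183 TPM in the control, 183 without glucose, 180.1 without glutamine, 131 in hypoxia, 49.8 in ER stress, 250.035 with arsenite and 128 with NaCl. Tubb3 was at 26.0 TPM in the control, 38.6 without glucose, 32.4 without glutamine, 35.3 in hypoxia, 127 in ER stress, 28.2 with arsenite and 23.4 with NaCl. In both genes the ER stress library stood apart from all others, Tubb2a below them and Tubb3 above. Tuba1c (2.62), Tuba1a (2.43) and Tubb6 (2.16) were the other genes with a range of more than 2-fold over the 7 libraries.

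ER stress was the condition with the largest differences among the tubulins. Of the 10 genes, 9 were lower than in the control, and their median change was -0.65, against 0 for all kept genes, of which 48.5% were below the control. Past 2-fold, 1 tubulin was higher, Tubb3 (log2 change 2.24), and 1 was lower, Tubb2a (-1.86), beside a background of 8.60% of kept genes higher and 11.0% lower. This share of members is near the background. Tuba1a came next at -0.97, and it stood at -1.02, past 2-fold, once the 100 most abundant other genes were left out of the TPM. Tubb4b (-0.83), Tuba1b (-0.73), Tubb6 (-0.69), Tubb2b (-0.62) and Tubb5 (-0.51) were lower by less, and Tuba1c and Tuba4a were each at -0.21. At a threshold of 1.5-fold 6 tubulins were lower and 1 higher, beside 21.3% and 19.0% of kept genes. In the whole library 274 kept genes had a larger positive change than Tubb3, and 400 had a larger negative change than Tubb2a. The fibroblast markers moved the same way as the 9 lower tubulins, with all 9 below the control and a median change of -0.86.

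**Figure D2:**
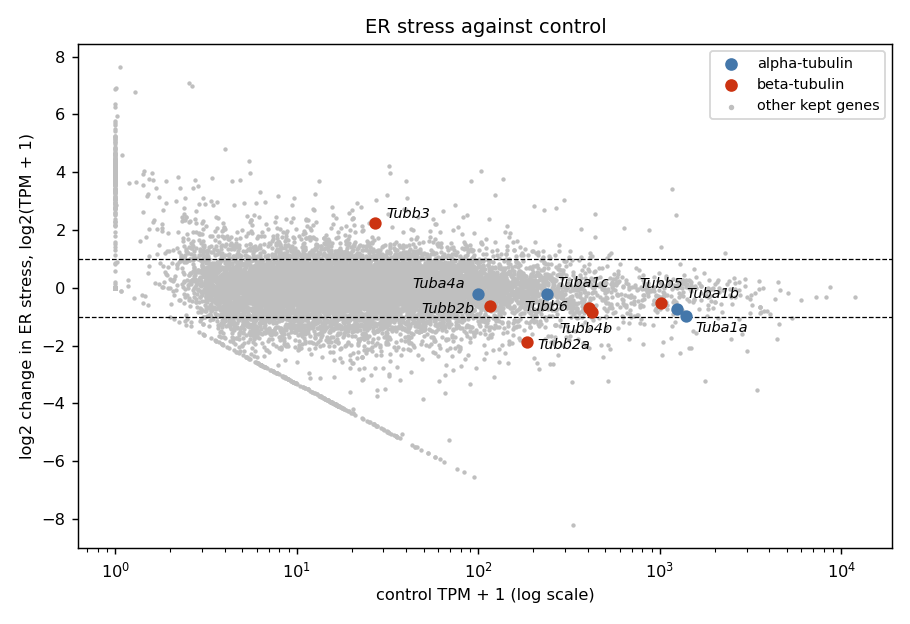
Change of each kept gene in ER stress (log2 of TPM + 1 against control, y axis) over its control level (TPM + 1, log x axis), with alpha-tubulins in blue, beta-tubulins in red, other genes in grey and dashed lines at 2-fold. Tubb3 lies above the upper line at 2.24, Tubb2a lies below the lower line at -1.86, and the other 8 lie between the lines and below 0.

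The summed level of neuron markers was not higher where Tubb3 was high, but it came mostly from 3 genes present in every library. Of 12 neuron markers, 3 were kept (Map2, Stmn2 and Gap43), and the summed level of the list was 50.4 TPM with thapsigargin and 55.9 TPM without, within a range of 47.4 to 63.9 TPM over the 7 libraries. Snap25, a protein of synaptic vesicle fusion, was listed at 0 in all libraries. Nefl, Dcx and Rbfox3 were listed at 0 in ER stress, and at only 0.0441, 0.0160 and 0.0536 TPM in the control. Other members of the list at under 1 TPM stood higher there than in the control, Elavl4 at 0.818 against 0.119 TPM, Syt1 at 0.760 against 0.0621 TPM and Nefm at 0.985 against 0.482 TPM. Elavl3 was also higher, at 0.179 against 0 TPM, and Syp was lower, at 0.0685 against 0.295 TPM. Map2, a dendritic microtubule protein, had 19.9 TPM in control cells and 20.9 TPM with thapsigargin. Stmn2, which binds free tubulin dimers, was at 26.7 and 20.2 TPM.

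Tubb3 and Tubb2a differed from the control in opposite directions in ER stress, and Tuba1a was the alpha-tubulin with the largest difference, so the 250 bases before their RefSeq transcription starts are shown. GENCODE M21 places the starts of Tuba1a and Tubb3 further upstream, so that 202 and 129 of these bases lie within its spans of the genes, and 0 for Tubb2a. The sequences are those of RefSeq on GRCm38.p6, each read 5′ to 3′ on the strand of the gene. Tubb3 lies at chr8:123411303-123411552 on the plus strand, Tubb2a at chr13:34078009-34078258 on the minus strand and Tuba1a at chr15:98953502-98953751 on the minus strand. Capitals mark matches on either strand to the CCAAT box, to the letters CCACG, to the cyclic AMP element (TGACGTCA), to the TATA box (TATAAA) and to the GC box (GGGCGG).
Tubb3: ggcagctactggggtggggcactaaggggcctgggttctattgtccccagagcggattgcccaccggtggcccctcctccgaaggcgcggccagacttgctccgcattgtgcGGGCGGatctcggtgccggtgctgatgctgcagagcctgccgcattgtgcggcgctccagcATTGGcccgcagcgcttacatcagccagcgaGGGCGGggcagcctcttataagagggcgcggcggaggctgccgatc
Tubb2a: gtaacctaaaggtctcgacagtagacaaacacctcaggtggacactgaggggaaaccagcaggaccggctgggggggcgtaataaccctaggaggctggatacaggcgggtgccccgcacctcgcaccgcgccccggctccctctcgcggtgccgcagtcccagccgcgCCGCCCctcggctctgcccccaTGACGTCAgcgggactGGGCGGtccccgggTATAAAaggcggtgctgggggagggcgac
Tuba1a: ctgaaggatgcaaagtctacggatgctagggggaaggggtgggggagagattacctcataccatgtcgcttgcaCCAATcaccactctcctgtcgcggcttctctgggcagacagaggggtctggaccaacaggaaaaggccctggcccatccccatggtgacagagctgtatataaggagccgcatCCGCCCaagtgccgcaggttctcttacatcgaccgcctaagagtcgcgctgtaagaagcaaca

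The promoter table held 8 of the 10 genes, all but Tubb2b and Tubb6. The ER stress element, CCAAT followed after 9 bases by CCACG, was in 0 of the 8 and in 0.113% of the 32851 promoter windows of the same length. Searched singly on both strands, CCAAT was in 5 of the 8 (Tuba1a, Tuba1c, Tubb3, Tubb4b and Tubb5) and in 33.8% of all windows, and CCACG was in 3 (Tuba1b, Tubb4b and Tubb5) and in 28.3%. TGACGTGG, read by ATF6 and XBP1, was in 0 of 8 and 0.563% of all, and TGATGCAA, read by CHOP with ATF4, in 0 of 8 and 0.791%. Tubb2a was the only 1 of the 8 with the cyclic AMP element TGACGTCA, which begins 59 bases before its start and was in 1.55% of all windows. It was also the only 1 with TATAAA, 29 bases before its start, against 12.4% of all windows. GGGCGG was in 6 of the 8 (all but Tuba1c and Tubb5) and in 32.7% of all windows. The GC content of the window was 68.0% for Tubb3, 68.4% for Tubb2a and 56.8% for Tuba1a, beside a median of 52.4% over all windows. A match of letters describes the window and says nothing of binding, and the absence of a match covers these bases only.

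In osmotic stress all 10 tubulins were below the control, with a median of -0.26, but none passed 2-fold. The background was 3.08% of kept genes higher and 8.76% lower past 2-fold, and 61.6% of kept genes were below the control. Relative to the median of all genes, 8 of the 10 tubulins were lower. Tubb6 (-0.65), Tubb4b (-0.55) and Tubb2a (-0.52) had the largest differences, and Tuba4a (-0.02) and Tubb2b (-0.08) the smallest. At 1.5-fold 1 tubulin, Tubb6, was lower, beside 19.5% of kept genes. In hypoxia 9 of the 10 were lower, with a median of -0.32 against -0.05 for all genes, of which 55.5% were below the control. No tubulin passed 2-fold in hypoxia, where 3.57% of kept genes were higher and 2.64% lower by that much. Tuba1c (-0.85) and Tubb2b (-0.63) were the furthest below the control, both past 1.5-fold beside 8.10% of kept genes, and Tubb3 (0.43) was the gene above it.

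Oxidative stress split the tubulins by gene. There 7 of the 10 were above the control, with a median of 0.22 against -0.16 for all genes, of which 65.97% were below. None passed 2-fold, beside 3.94% of kept genes higher and 4.85% lower. Tuba1c (0.55), Tuba4a (0.54), Tubb2a (0.45), Tubb6 (0.33) and Tuba1a (0.31) were the furthest above, while Tubb4b (-0.48), Tubb5 (-0.35) and Tuba1b (-0.21) were below. Tuba1a, Tuba1b and Tuba1c are hard to separate by their reads, and their sum changed by 0.13.

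The nutrient depletions gave smaller medians. In glucose depletion the median tubulin change was 0.03 against -0.02 for all genes, of which 53.7% were below the control. There 7 of the 10 were above the control, the largest being Tubb3 (0.55), Tuba1c (0.35) and Tubb6 (0.29). Of the 7, Tubb2a (0.0006) and Tuba1a (0.005) were nearly level with the control. None passed 2-fold, beside 1.83% of kept genes higher and 2.41% lower. In glutamine depletion the median was -0.10, close to the -0.09 of all genes, and again none passed 2-fold, beside 3.21% of kept genes higher and 3.21% lower. Tuba1c (0.54) and Tubb6 (0.42) were the furthest above the control, and Tubb4b (-0.33) and Tuba1b (-0.32) the furthest below.

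**Figure D3:**
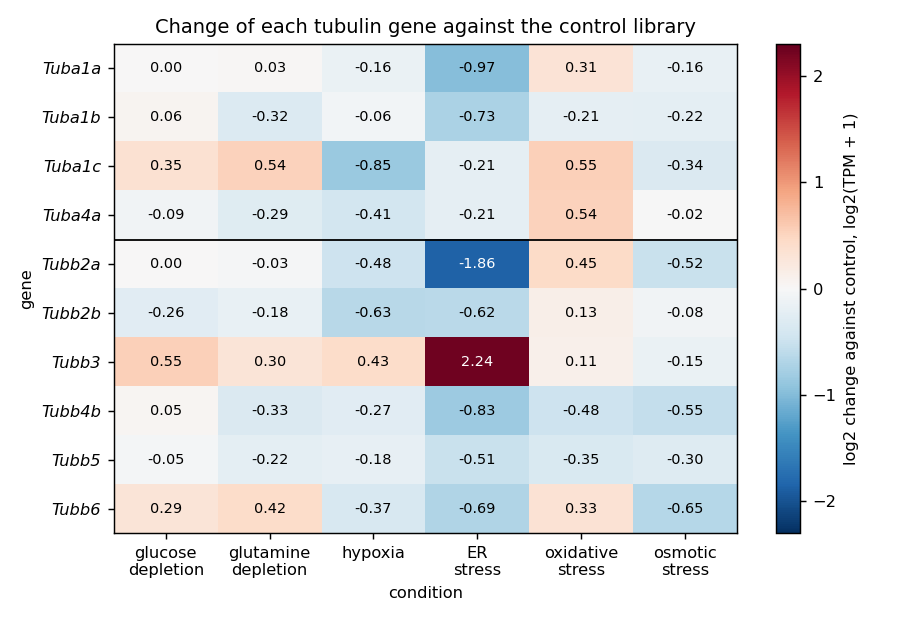
Change of each tubulin gene (rows) in each condition (columns) against the control library, as log2 of TPM + 1, with red above and blue below the control. The darkest cells are both in the ER stress column, 2.24 for Tubb3 and -1.86 for Tubb2a, and the osmotic stress column holds no value above 0.

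Because TPM is per length, the genes can be summed into an alpha and a beta pool. The alpha sum was 2966 TPM in the control, 3086 in glucose depletion, 2845 in glutamine depletion, 2638 in hypoxia, 1745 in ER stress, 3285 in oxidative stress and 2592 in osmotic stress. The beta sum was 2165 TPM in the control, 2233 in glucose depletion, 2065 in glutamine depletion, 1797 in hypoxia, 1449.8 in ER stress, 2011 in oxidative stress and 1629 in osmotic stress. Both pools were lowest in ER stress, where the whole was 37.7% below the control and 0.320% of the library. The whole was 17.7% below the control in osmotic stress, 13.6% in hypoxia and 4.33% in glutamine depletion, and it was 3.66% above it in glucose depletion and 3.21% in oxidative stress. The ratio of alpha to beta, which does not depend on the scaling of a library, was 1.37 in the control, 1.38 in both nutrient depletions and 1.47 in hypoxia. It was lowest in ER stress at 1.20 and highest in the 3-hour libraries, at 1.63 in oxidative stress and 1.59 in osmotic stress.

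The make-up of the pools also differed between libraries. Tubb3 was 1.20% of the beta pool in the control and 8.74% in ER stress, and between 1.40% and 1.97% in the other 5 libraries. Tubb2a was 8.47% of it in the control, 3.43% in ER stress and 12.4% in oxidative stress. Tubb3 thus stood at 0.142 times Tubb2a in the control and at 2.54 times it in ER stress. Tubb6 went from 18.8% in the control to 26.5% in glutamine depletion and 25.5% in oxidative stress, and Tubb5 held between 39.6% and 50.5% everywhere. In the alpha pool, Tuba1a was 46.9% in the control, 40.6% in ER stress and 52.4% in oxidative stress. Tuba1b went from 41.8% in the control to 35.04% in glutamine depletion and 32.7% in oxidative stress, so that Tuba1a was 1.12 times Tuba1b in the control and 1.60 times it in oxidative stress. This ratio depends on how reads shared by the genes were divided. Tuba1c was 8.004% in the control, 4.99% in hypoxia, 11.7% with thapsigargin and 12.1% without glutamine, and Tuba4a stayed between 2.78% and 4.84%.

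**Figure D4:**
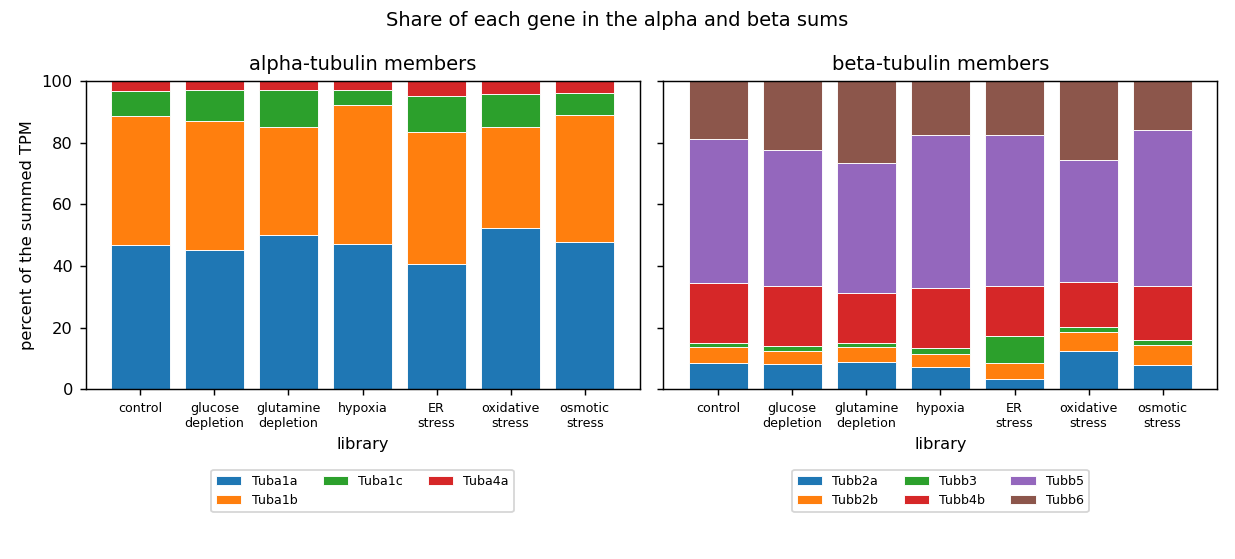
Share of each gene in the summed TPM of the 4 alpha-tubulins (left) and the 6 beta-tubulins (right), in percent, with 1 stacked bar for each library. The green Tubb3 band is 1.20% in the control and 8.74% in ER stress, and the blue Tubb2a band is 3.43% there.

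Some of these genes are hard to separate by their reads. Of the 31-base words in their GENCODE M21 transcripts, 69.5% of those of Tuba1a, 68.7% of Tuba1b and 55.3% of Tuba1c also occur in other genes of the table. The share was 56.4% for Tubb2a, of which Tubb2b held 51.1 percentage points, 43.1% for Tubb2b, and 53.0% for Tubb4b, mostly with its pseudogene Tubb4b-ps1, which was at 0.182 TPM in the control. Tuba4a shared 38.4%, of which 35.6 percentage points were with Stk16 on the opposite strand. The level of each of these genes is therefore uncertain, whereas Tubb3 (3.21%), Tubb5 (3.497%) and Tubb6 (3.20%) shared few words. Summed with Tubb2b, Tubb2a gave 298 TPM without and 124 TPM with thapsigargin, a log2 change of -1.26 that was still past 2-fold. The sum of Tuba1a, Tuba1b and Tuba1c went from 2868 to 1661 TPM, a change of -0.79. On GRCm38 with GENCODE M21, Tuba1a (98949837 to 98953703, minus strand), Tuba1b (98931425 to 98934565, minus strand) and Tuba1c (99029891 to 99038110, plus strand) are neighbours on chromosome 15. Tubb2a (34074274 to 34078007) and Tubb2b (34126748 to 34130466) are neighbours on the minus strand of chromosome 13. Tubb3 is on chromosome 8 (123411424 to 123422015, plus strand), Tubb5 on chromosome 17 (35833921 to 35838306, minus strand), Tuba4a on chromosome 1 (75214228 to 75219865, minus strand) and Tubb4b on chromosome 2 (25222160 to 25224702, minus strand).

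The harvest time of the control culture is not in the labels, so libraries of the same duration were also set against each other. At 3 hours, 9 of the 10 tubulins were lower in osmotic than in oxidative stress, with a median difference of -0.37 against 0.03 for all genes, and none passed 2-fold, beside 11.8% of kept genes in either direction. Tubb6 (-0.98), Tubb2a (-0.97) and Tuba1c (-0.88) differed most, and Tubb5 (0.05), Tuba1b (-0.01) and Tubb4b (-0.06) least. At 10 hours, ER stress against glucose depletion put Tubb3 (1.69) higher and Tubb2a (-1.86) lower past 2-fold, beside 18.7% of kept genes. Against hypoxia the same 2 genes passed, Tubb3 at 1.81 and Tubb2a at -1.38, beside 22.4%. Against glutamine depletion Tubb3 (1.94) was higher, and Tubb2a (-1.83), Tubb6 (-1.11) and Tuba1a (-1.004) were lower, beside 19.7%. The difference of Tubb3 and Tubb2a in ER stress was thus present without the control library, although these pairs share the ER stress library. Hypoxia put Tuba1c lower than glucose depletion (-1.20, beside 6.96% of kept genes) and lower than glutamine depletion (-1.38, beside 10.2%). All 10 tubulins were lower in hypoxia than in glucose depletion, with a median difference of -0.32 against -0.006 for all genes. Tubb3 and Tuba1b differed least there, each at -0.12. The shares of all kept genes lower in this pair and in the 3-hour pair are not given here. Between glutamine and glucose depletion no tubulin passed 2-fold, beside 5.49% of kept genes.

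The 108 other genes of tubulin biology and the cytoskeleton that were listed gave 98 kept genes. Past 2-fold in ER stress, 2 of the 98 were higher and 3 lower, beside the 8.60% and 11.0% of all kept genes. In osmotic stress 0 were higher and 4 lower, beside 3.08% and 8.76%, in glutamine depletion 1 was lower, beside 3.21%, and in the other 3 conditions there were none. Of the 10 other tubulins, 5 were kept, and all 5 were below the control in ER stress with a median of -0.82. All 5 were also below it in oxidative stress (median -0.59) and osmotic stress (-0.57). In glucose depletion 4 were below it, in glutamine depletion 3 and in hypoxia 3. Of all kept genes, 48.5% were below the control in ER stress, 65.97% in oxidative stress and 61.6% in osmotic stress. Tuba8, an alpha-tubulin of low level here, went from 5.39 to 1.13 TPM in ER stress (-1.58) and to 2.17 TPM in osmotic stress (-1.01). Tubd1, the delta-tubulin of centrioles, went from 6.74 to 2.54 TPM in glutamine depletion (-1.13) and 2.47 TPM in osmotic stress (-1.16). Tube1, the epsilon-tubulin, had the largest positive difference of this list, from 3.21 to 6.65 TPM in hypoxia (0.86). Tubg1, the main gamma-tubulin that seeds microtubules, stood at 54.5 TPM without and 30.5 TPM with thapsigargin (-0.82), and Tubg2, the other gamma-tubulin, at 5.82 and 3.19 TPM (-0.70). Within the 11 genes of the gamma-tubulin ring complex, the extremes were Tubgcp2 in ER stress (0.33) and Tubgcp5 in osmotic stress (-0.97), both subunits of the ring.

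Among the genes for folding of tubulin, all 8 subunits of the CCT chaperonin were above the control in ER stress, between 0.15 and 0.67 with a median of 0.39, though none passed 2-fold. Cct7 had the largest difference, from 278 to 442 TPM, and the lowest value of the list was Cct3 in hypoxia (-0.47). Of all kept genes, 48.5% were below the control in ER stress. All 8 CCT subunits were also above the control in glucose depletion (median 0.10), and 7 were in glutamine depletion (0.09). Below it were 7 in hypoxia, 6 in oxidative stress and 7 in osmotic stress. Prefoldin had a median of 0.03 in ER stress and held both its extremes there, Pfdn6 (0.63) and Pfdn5 (-0.69). The 7 folding cofactors had a median of -0.09 there, with 3 above and 4 below the control, and Tbcc was at -0.77. Tbcb, which binds alpha-tubulin, went from 109 to 246 TPM in ER stress (1.17), and Tbcc, which acts on the assembled dimer, went from 25.0 to 4.99 TPM in osmotic stress (-2.12). Of the 3 genes of tubulin mRNA autoregulation, Ttc5 was at -0.17, Scaper at -0.36 and Cnot11 at 0.40 in ER stress. Cnot11, a part of the deadenylase complex, also had both extremes of this list, in glutamine depletion (0.41) and osmotic stress (-0.84).

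**Figure D5:**
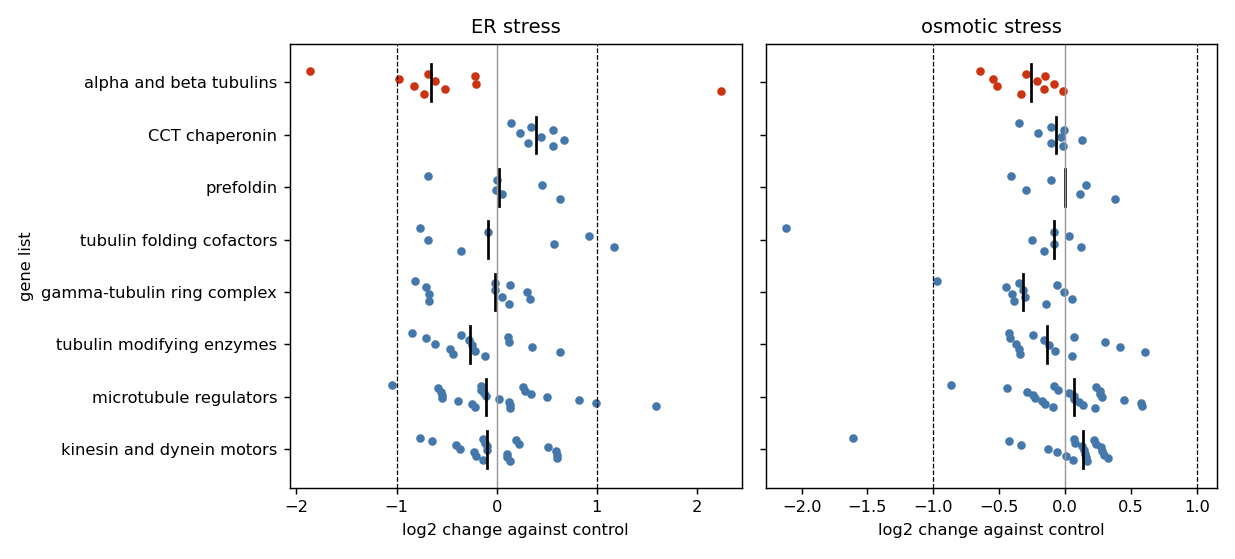
Change against control (log2 of TPM + 1, x axis) of the tubulins (red) and of 7 lists of related genes (blue) in ER stress (left) and osmotic stress (right), with 1 point per kept gene, a black bar at each list's median and dashed lines at 2-fold. In ER stress the tubulin median is -0.65 and that of the CCT chaperonin 0.39, with all 8 CCT points right of 0.

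The lists of tubulin modifying enzymes, microtubule regulators and motors had ER stress medians nearer to 0 than the -0.65 of the tubulins. The 14 kept tubulin modifying enzymes had a median of -0.27, with extremes in Ttll4 (0.63), which adds glutamate to tubulin tails, and Agbl5 (-0.84), which removes it. The 23 kept microtubule regulators had a median of -0.11. Among them Map1b, which binds and stabilises microtubules, went from 19.95 to 62.0 TPM (1.59), and Mapre3, a plus end binding protein, from 38.2 to 18.0 TPM (-1.04). The 20 kinesin and dynein genes had a median of -0.10. Dync1li1, a light intermediate chain of dynein, was at 0.61 in ER stress, and Dctn4, a subunit of dynactin, went from 37.4 to 11.6 TPM in osmotic stress (-1.61). The 3 genes of other filaments were all lower than the control in ER stress, Actb at -1.24 (4508 to 1901 TPM), Vim at -0.86 and Actg1 at -0.82, and Actg1 had the highest value of this list in glutamine depletion (0.39).

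The genes whose levels ran most alike to the summed tubulins over the 7 libraries, among 8805 other genes averaging 10 TPM or more, were Rgs10 (Pearson r 0.984), Prim2 (0.982), Actb (0.977), Msrb3 (0.970) and Baiap2 (0.968). Papd5 (-0.995), Tmem131 (-0.989) and Os9 (-0.986) ran most opposite, and Os9, a lectin of ER-associated degradation, went from 101 to 187 TPM with thapsigargin. These values are descriptions over 7 points that share the scaling of each library, and the genes were picked by their r. For Tubb3 and Tubb2a the ER stress library stood apart from all others, so r depends heavily on that 1 library. Tuba1a was also lowest there, at 709 TPM against 1241 or more elsewhere. The summed tubulins stood at 3195 TPM there against 4222 or more elsewhere, so the same limit holds for both. For Tubb3 the most alike were Rrbp1 (0.990), Zfp106 (0.990) and Stt3a (0.989), of which Rrbp1 went from 314 to 657 TPM and Stt3a from 365 to 757 TPM in ER stress. For Tubb2a they were Col7a1 (0.986), AC122273.2 (0.977) and Baiap2 (0.973), and for Tuba1a Col7a1 (0.994), Pakap (0.979) and AC122273.2 (0.975). Col7a1 measured 17.7 TPM in control cells, 3.72 TPM with thapsigargin and 26.0 TPM with arsenite. For Tuba1c the genes were Cd44 (0.987), Ate1 (0.966) and Fhl3 (0.955), with Cd44 at 290.0 TPM in the control, 454 TPM in glutamine depletion and 183 TPM in hypoxia. For Tubb6 they were Ppp2r1b (0.989), Gnb4 (0.979) and Nsmf (0.976).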

How the data were processed

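RNA-seq libraries were made by the authors with a stranded mRNA kit and sequenced as 76-base paired reads. Kallisto 0.43.1 was run at default settings, with no statement that strand was used, on all GRCm38 cDNA of Ensembl release 90, and the deposited TPM are sums over the transcripts of each gene. TPM keeps no read count, so depth and counting error are unknown. From the deposited TPM, log2(TPM + 1) differences were computed for all 49382 rows, and genes averaging 2 TPM or more were kept. The pseudocount of 1 TPM and the 2-fold threshold follow the study's methods. No test was run, since each group was 1 library. The steps were tested on simulated data.

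The members and gene lists were chosen with earlier results of these data known. Named genes were all members, kept other tubulins, the largest rise and fall of each other list with any gene past 2-fold in at least 2 conditions, and the genes most alike to the tubulin sum (5 highest and 3 lowest r) and to each member ranging over 2-fold (3 each). Vim, Ttc5, Scaper and the neuron and fibroblast markers were named outside this rule, after their values were seen. Protein sequences were not analysed here. Alternatives were pseudocounts of 0.1 and 5 TPM, centring, TPM without mitochondrial or the 100 most abundant genes, another reference, thresholds of 1.5-fold and 3-fold, other filters, and wider tubulin pools. Sums of near-identical genes were added after seeing the data. Values were computed in Python 3.11.15 with pandas 2.3.3 and numpy 2.4.6, and drawn with matplotlib 3.10.9.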

Additional observations from a re-analysis of the deposited data

How the results depend on the processing

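Of 1376 recomputed values, 1307 stayed within 1.5 times (counts and shares) or 1.5-fold (changes) of the reported value and 69 moved further. Most reported changes were themselves smaller than 1.5-fold, so this limit was wide for them. Counts that stayed at 0 are among the 1307. No change past 2-fold switched sign, but 34 recomputed values of smaller changes did, all for changes within 0.2834 of 0 as reported. Of these recomputed values, 10 were for single tubulins and 4 for their sums. Some changes switched under more than 1 alternative, so fewer separate changes were involved. Centring put the summed beta-tubulins at 0.05 in oxidative stress and 0.02 in glutamine depletion, and the summed alpha-tubulins at 0.03 in glutamine depletion. With the median library as reference, Tuba1b stood at 0.15 in hypoxia and Tubb3 at -0.19 in oxidative stress, and 6 of the 10 tubulins were lower in hypoxia. In ER stress, Tubb3 ranged from 1.94 to 2.28, Tubb2a from -1.92 to -1.78 and Tuba1a from -1.02 to -0.97. Member counts moved as follows. At 1.5-fold, 2 tubulins were lower in hypoxia, 6 in ER stress and 1 in osmotic stress, beside 8.10%, 21.3% and 19.5% of kept genes. With the 100 most abundant other genes left out, 2 were lower in ER stress past 2-fold, beside 11.0% of kept genes before these were left out. After centring, 4 differed between ER stress and glucose depletion and 1 between osmotic and oxidative stress. Without centring, 18.7% and 11.8% of kept genes passed 2-fold in these pairs, and their shares after centring are not given here.

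Counts over the 98 related genes moved more. With a pseudocount of 0.1 TPM, 1 was higher and 1 lower in hypoxia, 5 were lower in ER stress and 1 in oxidative stress. With 5 TPM, the lower genes numbered 0 in glutamine depletion, 1 with thapsigargin and 2 with NaCl. The number of all kept genes past 2-fold in either direction also rose at 0.1 TPM and fell at 5 TPM, in every condition. Without the 100 most abundant genes, 1 was lower in oxidative stress. With the median library as reference, or a mean of at least 10 TPM, 0 were lower in glutamine depletion and 2 in osmotic stress. With no filter, 1 was higher in each of hypoxia, oxidative stress and osmotic stress. At 3-fold, 0 were lower in glutamine depletion, 1 was higher and 0 lower in ER stress, and 2 were lower in osmotic stress. Shares of all kept genes are not given for the changes of pseudocount, reference or filter, the removal of abundant genes or 3-fold. At 1.5-fold, 3 were lower in glucose depletion, beside 6.23% of all kept genes. In glutamine depletion 2 were higher and 4 lower, beside 7.47% and 10.6%. In hypoxia 2 were higher and 3 lower, beside 7.23% and 8.10%. In ER stress 11 were higher and 19 lower, beside 19.0% and 21.3%. In oxidative stress 2 were higher and 8 lower, beside 7.27% and 16.2%. In osmotic stress 1 was higher and 7 lower, beside 6.56% and 19.5%. The cause of these moves, beyond the change of threshold or of the genes counted, was not tested.

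No paired analysis was possible because each group had 1 library and the result comes from no test. For the same reason no library was left out within a group. Every difference rests on 1 library per condition, so the spread between cultures is unknown, and TPM is a share of each library. The levels of Tuba1a, Tuba1b, Tuba1c, Tuba4a, Tubb2a, Tubb2b and Tubb4b depend on how reads shared with other genes were divided.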
